A study of Mus musculus with 2 samples.

Results

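The homeobox and T-box regulators outside the Hox clusters were taken as the protein-coding genes of the GENCODE M21 annotation whose symbol begins with a family stem and a digit, the stems being Pax, Lhx, Irx, Dlx, Msx, Nkx, Pou, Tbx, Gsx, Pitx, Meis, Pbx, Emx, Otx or En, together with Six2 and its relatives of the same stem. The rule uses names alone, and it gave 99 of the 21951 protein-coding genes. Whether each of them carries a homeobox or a T-box was not checked. The rule takes in, for one, Pou2af1, a coactivator of POU factors with no homeobox of its own, which had no TET2 peak. TET2 occupancy was measured by ChIP-seq in mouse cells for which the labels give no genotype, treatment group, sex or age of the animals. Adipose-derived stem cells (ASCs) were induced to become adipocytes in culture with IBMX, dexamethasone and insulin. The ChIP-seq methods of the paper name no fat depot for them. There was 1 library from the TET2 immunoprecipitate and 1 input library, which leaves all values without replicates and without any condition to test against. Intervals given for shares are exact 95% binomial intervals and cover counting error only.

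TET2 is an enzyme that oxidises 5-methylcytosine, which can begin the removal of methyl groups from CpG dinucleotides, and it has no DNA-binding domain of its own, so partner proteins bring it to chromatin. Homeobox proteins bind short AT-rich elements through the homeodomain, and T-box proteins bind through a T-box domain. They lay out the brain, heart, limbs and muscle in the embryo, and most are silent in a given adult cell type. Their genes often carry CpG islands, stretches rich in CpG that can run far into the gene and are held by Polycomb repressors where the gene is off.

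The deposited list holds 14103 peaks, each with its interval and a value read as the caller's −log10 p for enrichment over input, but no summit, so each peak was placed by its midpoint on GRCm38 against every annotated transcription start site (TSS). Of the 99 regulators, 55 had a TET2 peak within 1 kb of a TSS, 1 to 3 kb from a TSS or farther inside the gene, which made 72 distinct peaks. None of the 72 was shared by 2 regulators. In the whole list 15.5% of the −log10 p values are below 5, although the study names a p-value setting that equals 5 on this scale. How they relate to that setting is not known, and they serve here only to rank and filter peaks. The adipocyte markers Adipoq, Fabp4, Plin1, Pparg, Cebpa, Lipe and Cidec had no peak in these classes, while Lep, the leptin gene, had 1. A peak list does not measure expression, so the identity of the cells was not checked by it.

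The central 200 bases of 5 of the regulator peaks with the largest −log10 p are printed to show how unlike each other the strongest sites are in CpG content. They are read from the plus strand of GRCm38, 5′ to 3′, with every CG dinucleotide in capitals.
Pou2f1, chr1:165911200-165911399: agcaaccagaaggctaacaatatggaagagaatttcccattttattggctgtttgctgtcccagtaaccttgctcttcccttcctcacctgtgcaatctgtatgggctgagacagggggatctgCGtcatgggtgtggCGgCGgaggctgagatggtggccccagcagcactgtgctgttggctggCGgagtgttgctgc
Dlx6, chr6:6863880-6864079: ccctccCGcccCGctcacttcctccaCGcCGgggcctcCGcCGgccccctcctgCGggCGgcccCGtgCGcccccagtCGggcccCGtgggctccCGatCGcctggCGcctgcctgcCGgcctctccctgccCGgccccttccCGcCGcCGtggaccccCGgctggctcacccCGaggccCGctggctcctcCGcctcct
Otx2, chr14:48674050-48674249: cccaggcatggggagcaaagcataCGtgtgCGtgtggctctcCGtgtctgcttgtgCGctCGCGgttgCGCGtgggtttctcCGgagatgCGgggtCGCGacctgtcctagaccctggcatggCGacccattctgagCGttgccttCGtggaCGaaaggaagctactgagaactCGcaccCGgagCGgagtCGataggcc
Pax5, chr4:44664026-44664225: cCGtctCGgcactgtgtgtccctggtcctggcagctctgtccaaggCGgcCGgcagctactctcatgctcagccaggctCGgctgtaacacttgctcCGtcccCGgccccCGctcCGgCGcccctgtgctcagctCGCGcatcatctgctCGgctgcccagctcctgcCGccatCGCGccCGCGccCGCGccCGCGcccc
Pax9, chr12:56691364-56691563: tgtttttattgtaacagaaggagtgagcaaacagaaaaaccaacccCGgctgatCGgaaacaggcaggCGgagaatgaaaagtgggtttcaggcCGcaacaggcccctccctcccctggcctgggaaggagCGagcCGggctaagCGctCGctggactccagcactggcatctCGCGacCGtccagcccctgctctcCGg
The Pou2f1 stretch held 4 CpG, against 24 at Dlx6, 20 at Otx2, 22 at Pax5 and 12 at Pax9. Dlx6, Otx2 and Pax9 were peaks at a TSS, while that of Pou2f1 lay in a coding exon and that of Pax5 in an intron.

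A peak within 1 kb of a TSS was found at 35 of the 99 regulators, or 35.4% (interval 26.0% to 45.6%), where 24.6% of all protein-coding genes had such a peak. The share among 63 Fox and Sox genes, another set of developmental transcription factors, was 33.3% (22.0% to 46.3%), and among the 39 Hox genes it was 17.9% (7.54% to 33.5%). The intervals of the 3 sets overlap. A peak 1 to 3 kb from a TSS was found at 16 regulators, or 16.2% (9.53% to 24.9%), against 5.05% of all protein-coding genes. Hox genes were at 17.9% in that class (7.54% to 33.5%), and Fox and Sox genes at 9.52% (3.58% to 19.6%). Inside the gene and over 3 kb from a TSS, 15 regulators had a peak, or 15.2% (8.74% to 23.8%), against 13.0% of all protein-coding genes, and for 10 of them (10.1%) this was the only peak, against 7.93%. In all, 55.6% of the regulators had a peak of some class (45.2% to 65.5%) against 36.4% of protein-coding genes. The lower bounds lay above the background within 1 kb, at 1 to 3 kb and over all classes, with the widest gap relative to the background at 1 to 3 kb. The intervals of the gene body classes contained their background.

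**Figure D1:**
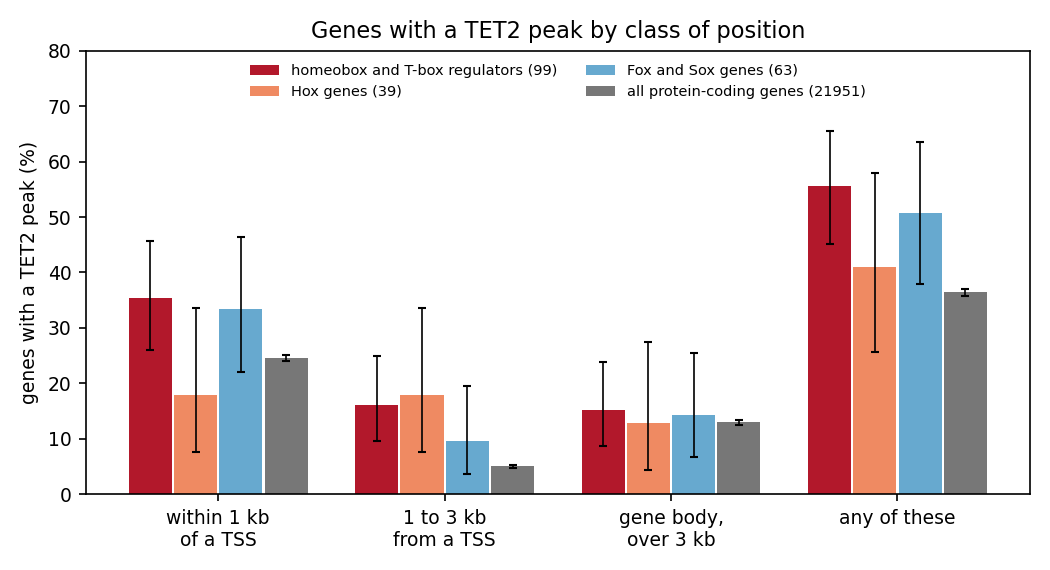
Share of genes (percent, vertical axis) with a TET2 peak in each class of position, for the 99 homeobox and T-box regulators, 39 Hox genes, 63 Fox and Sox genes and all 21951 protein-coding genes. Error bars are exact 95% binomial intervals for counting error. The regulators reach 16.2% at 1 to 3 kb, against 5.05% for all genes, while in the gene body the 4 sets lie close together.

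The promoter share depended on where a start site was drawn. With a single TSS per gene, the 5′ end of the gene record, 22.2% of the regulators had a peak within 1 kb against 20.1% of protein-coding genes, and with a window of 500 bp the shares were 23.2% and 21.6%. Of the 35 regulators with a promoter peak, 22 had it at the 5′ TSS and 13, or 37.1% (21.5% to 55.1%), only at an internal TSS, against 972 of the 5391 protein-coding genes with a promoter peak. These 13 included Dlx1, Emx1, Irx1, Irx2, Pax5, Pax8, Pitx1, Pitx3, Pou2f1, Pou2f3, Tbx1 and Tbx3. The share at 1 to 3 kb was 14.1% against 3.92% with a single TSS.

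Among all protein-coding genes, 24.6% had a promoter peak and 36.4% a peak of any class. The counts by family are set beside these shares. All 3 Pitx genes, developmental regulators of, among others, pituitary and hindlimb, had a peak within 1 kb of a TSS, and so did both Emx genes, which pattern the forebrain. Of the 16 Pou genes, 7 had a promoter peak and 8 had a peak of any class. Of the 14 Nkx genes, which specify heart, gut, thyroid and ventral neural tissue, 6 had a promoter peak and 10 had a peak of any class. Dlx genes, regulators of jaw, limb and forebrain interneurons, had promoter peaks at 3 of 6, Pax genes at 3 of 9, Tbx genes at 4 of 13, and Irx genes at 2 of 6. None of the 8 Lhx genes had a peak within 1 kb, and only Lhx2 and Lhx6 had a peak farther out. At these family sizes the counts are imprecise: 0 of 8 and 3 of 3 are each a handful of genes. The promoter shares of Pax (33.3%), Tbx (30.8%) and Irx (33.3%) lay near the 35.4% of all 99 regulators. A difference between families was not tested.

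**Figure D2:**
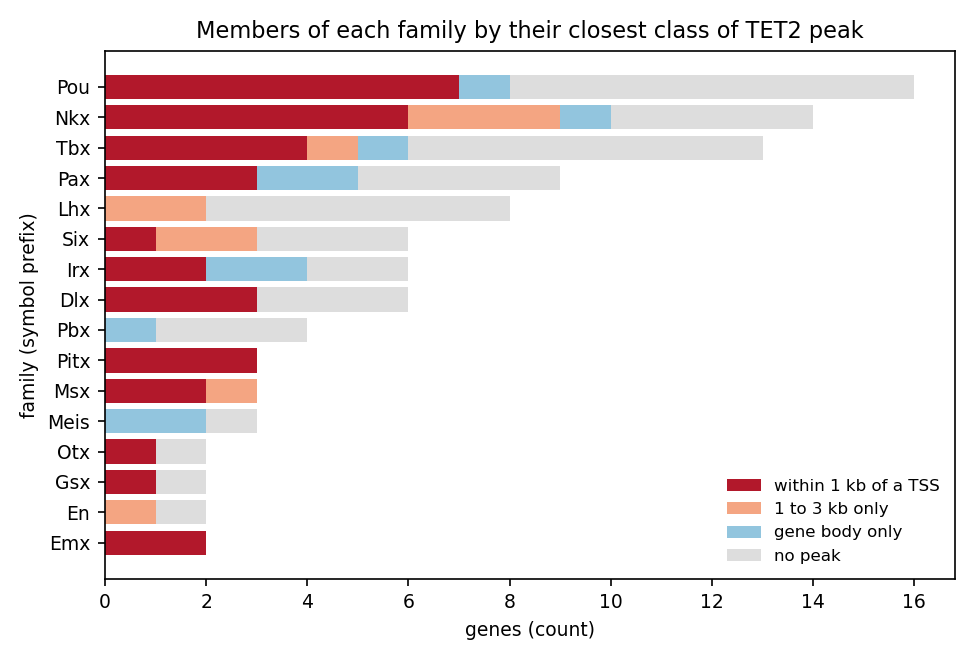
Number of genes (horizontal axis) of each family, by symbol prefix, coloured by the closest class in which the gene had a TET2 peak. Pitx and Emx are filled with promoter peaks, and Lhx, Pbx, Meis and En hold none.

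The TALE cofactors, Meis and Pbx proteins that bind DNA together with Hox proteins, had 0 of 7 genes with a promoter peak, which allows a share of up to 41.0%. Among them Meis1 and Meis2 had a peak in the gene body. Among 17 regulators of heart and limb, 9 had a promoter peak, or 52.9% (27.8% to 77.0%), and they included Dlx5, Dlx6, Msx1, Msx2, Pitx1, Tbx1, Tbx3 and Tbx20. Among 28 regulators of brain and sense organs, 11 had a promoter peak, or 39.3% (21.5% to 59.4%), including Otx2, Gsx1, Pou4f2 and Pou4f3. Dlx5, Dlx6, En1 and Lhx2 stand in both of the latter lists. The intervals of the TALE list and of the brain list contained the 24.6% of the genome. That of heart and limb lay above it, but the interval of each list contained the 35.4% of all 99 regulators. The lists were drawn up with results of these data known, so their intervals are no support for a difference. No set test was run.

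Few of the 72 peaks were among the strongest of the list, whose median −log10 p was 6.21. The median −log10 p was 6.68 for the 38 regulator peaks within 1 kb of a TSS (range 3.92 to 12.0), against 6.83 for all peaks within 1 kb of a protein-coding TSS. It was 5.91 for the 17 at 1 to 3 kb against 6.53, and 7.30 for the 17 in gene bodies against 6.21. Only 3 regulator peaks had a −log10 p of 10 or more, or 4.17% against 8.66% of the whole list, and 7 were below 5, or 9.72% against 15.5%. Counting only peaks of 10 or more, 2.02% of the regulators kept a promoter peak against 2.71% of protein-coding genes. The regulator share rests on 2 peaks, so its lower value does not show a reversal.

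The strongest regulator peak was at Pou2f1, which encodes the broadly expressed octamer-binding factor Oct-1. It spans chr1:165910969-165911631, has a −log10 p of 13.9 and ranks 174 of 14103. Its midpoint is 1983 bp downstream of the nearest Pou2f1 TSS, in a coding exon, and its CpG ratio, the observed number of CpG over that expected from the base composition, is 0.227. The other Pou2f1 peak, at chr1:165880027-165880419, had a −log10 p of 6.06 and lay 63 bp upstream of an internal TSS. It too lay in a coding exon, and its CpG ratio was 0.429. The stronger of the pair was the peak farther from a TSS and with the lower CpG ratio.

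Dlx6, a regulator of craniofacial and limb development, had the strongest promoter peak, at chr6:6863667-6864293. This peak lay in an intron, 182 bp downstream of an internal TSS, with a −log10 p of 12.0 and a CpG ratio of 0.720. The neighbouring gene Dlx5, transcribed from the opposite strand, had a much weaker peak. That peak lay 46 bp downstream of the nearest Dlx5 TSS, with a −log10 p of 4.73. Otx2, which specifies the forebrain and eye, had 2 promoter peaks. The stronger, at chr14:48673949-48674352 with a −log10 p of 11.0, lay 331 bp upstream of its TSS and 251 bp from the start of the transcript Gm49154. The weaker, 817 bp downstream of another Otx2 TSS in a noncoding exon, had a −log10 p of 5.13.

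Pax5, the factor that commits cells to the B lineage, had 4 peaks, more than any other regulator. The strongest, at chr4:44663875-44664378 in an intron, had a −log10 p of 9.98 and a CpG ratio of 0.844, and lay 289 bp from the start of the antisense transcript Gm12462. The other 3 had a −log10 p of 8.28 in a coding exon, 6.95 at 1797 bp upstream of the 5′ TSS and 6.36 at 107 bp upstream of an internal TSS. Pou2f2, which encodes the lymphoid factor Oct-2, had a promoter peak with a −log10 p of 6.80 and a pair of intronic peaks at 8.06 and 4.15. The 8.06 peak of Pou2f2 was 117 bp from the start of the microRNA gene Mir6537.

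Other peaks among the strongest 10 were at Pax9 (−log10 p 9.39), Msx1 (9.22), Emx2 (9.08) and Emx1 (8.85). The peak of Pax9, a regulator of tooth and vertebral development, was 303 bp upstream of the TSS at chr12:56691201-56691728. The Msx1 peak, in a gene of tooth and limb mesenchyme, was 859 bp downstream of a TSS in a noncoding exon. The Emx2 peak was 183 bp downstream of the Emx2 TSS but only 80 bp from that of the antisense transcript Emx2os, so the list cannot assign it to either strand. The Emx1 peak was in a coding exon, 537 bp downstream of a TSS.

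**Figure D3:**
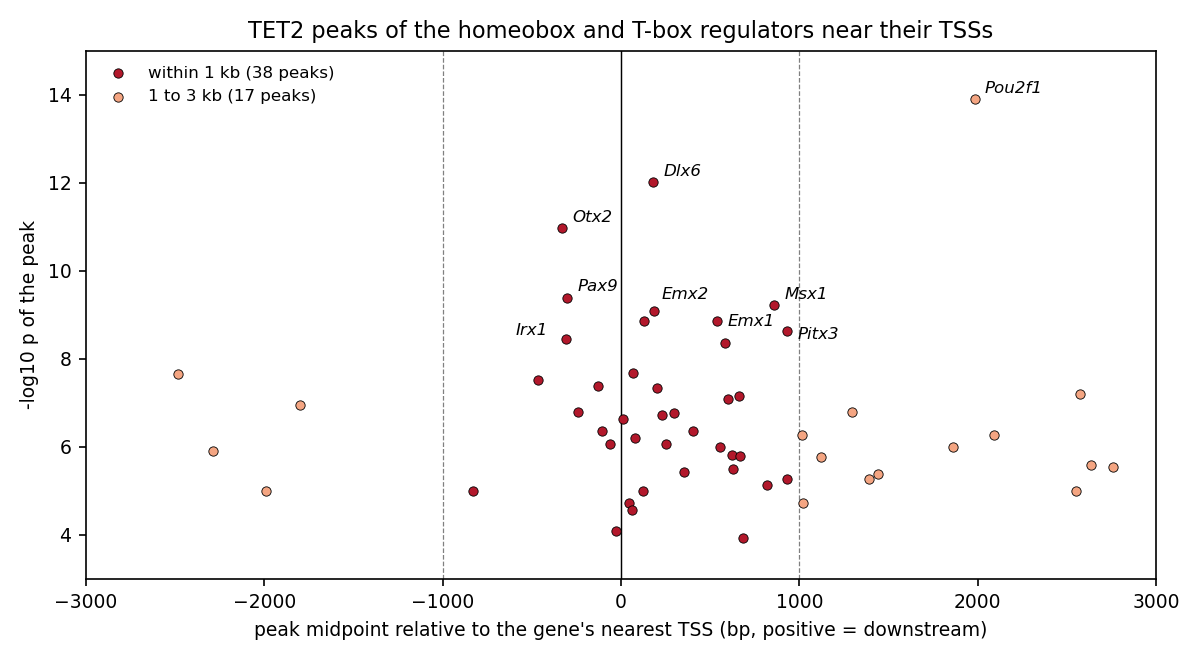
Each point is a TET2 peak of a homeobox or T-box regulator within 3 kb of a TSS, with the distance of its midpoint from the nearest TSS of the gene (bp) on the horizontal axis and its −log10 p on the vertical axis. Dashed lines mark 1 kb, several of the strongest peaks carry the name of their gene, and 13 of the 17 peaks beyond 1 kb lie downstream.

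The 13 regulators linked to fat cells or to their precursors were followed by name. Of these, 3 had a promoter peak, or 23.1% (5.04% to 53.8%), and 7 had a peak of any class, or 53.8% (25.1% to 80.8%). The latter interval contains both the 36.4% of all protein-coding genes and the 55.6% of all 99 regulators. Tbx1, a marker of beige adipocytes, had a peak 624 bp downstream of an internal TSS with a −log10 p of 5.81. Msx2, which restrains adipogenesis in mesenchymal cells, had a peak 667 bp downstream with a −log10 p of 5.79. Both lay over 600 bp downstream of the TSS they were given to and were below the median of all promoter peaks.

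Another 4 of the fat-linked genes had a peak only in the gene body. They included the myogenic stem cell factor Pax7 (−log10 p 8.11, coding exon), Meis1 (7.63, intron, 4080 bp downstream of a TSS) and Tbx15 (7.34, coding exon, 12329 bp downstream). Tbx15 is a marker of subcutaneous fat. The 6 others had no peak. The nearest peak was 596396 bp from a TSS of Tbx18, 528529 bp from En1, 245491 bp from Irx3, 102996 bp from Irx5, 85577 bp from Lhx8 and 82156 bp from Pax3. Irx3 and Irx5 are the genes whose expression in fat precursors is tied to the obesity variants at FTO. The share of fat-linked genes with a promoter peak, 23.1%, was close to the 24.6% of the genome.

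Genes in paralogous clusters, named here after their values were seen, did not carry peaks alike. Irx1, Irx2 and Irx4, the group on chromosome 13, each had a peak, with −log10 p of 8.44, 7.52 and 7.30. In the sister group on chromosome 8 only Irx6 had a peak, in its body at 5.91. Tbx3 and Tbx5, limb and heart regulators that lie side by side, both had peaks (6.01 for Tbx3, and 6.18 and 4.73 for Tbx5), while their relatives Tbx2 and Tbx4 had none. The cluster of Nkx2-1, Nkx2-9 and Pax9 on chromosome 12 held 5 peaks, at all 3 genes. They include a Pax9 gene body peak that was 81.1% repeat-masked. The cluster of Nkx2-4, Nkx2-2 and Pax1 on chromosome 2 held 3 peaks, none of them at Pax1. Of Six3 and Six2, only Six3 had a peak, 2633 bp downstream of an internal TSS with a −log10 p of 5.59. Dlx1 had a peak with a −log10 p of 4.08 and Dlx2 none, and neither Dlx3 nor Dlx4 had a peak. The 99 genes fall into 84 loci when genes within 500 kb are joined, and 49 of these loci had at least 1 peak. Other genes were not joined in this way, so the count of loci has no background. Per gene, 55.6% of the regulators and 36.4% of all protein-coding genes had a peak of some class.

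Promoter peaks of the regulators lay farther into the gene than those of other genes. At or downstream of the TSS were 28 of the 38, or 73.7% (56.9% to 86.6%), against 67.3% of all promoter peaks of protein-coding genes. Within 200 bp of the TSS on either side were 14, or 36.8% (21.8% to 54.0%), against 56.0%. Between 500 and 1000 bp downstream were 13, or 34.2% (19.6% to 51.4%), against 9.51%. The median distance from the TSS was 306.5 bp for the regulators and 172 bp for all protein-coding genes. Of the 17 peaks at 1 to 3 kb, 13 lay downstream, or 76.5% (50.1% to 93.2%), against 62.7%. The interval at 1 to 3 kb contains that value. Fox and Sox genes had 17.4% of their promoter peaks between 500 and 1000 bp downstream (4.95% to 38.8%) and Hox genes 11.1% (0.281% to 48.2%), and both intervals overlap that of the regulators. At 1 to 3 kb, 83.3% of the Fox and Sox peaks (35.9% to 99.6%) and 62.5% of the Hox peaks (24.5% to 91.5%) lay downstream, so the position was not shown to differ between the regulators and these sets.

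**Figure D4:**
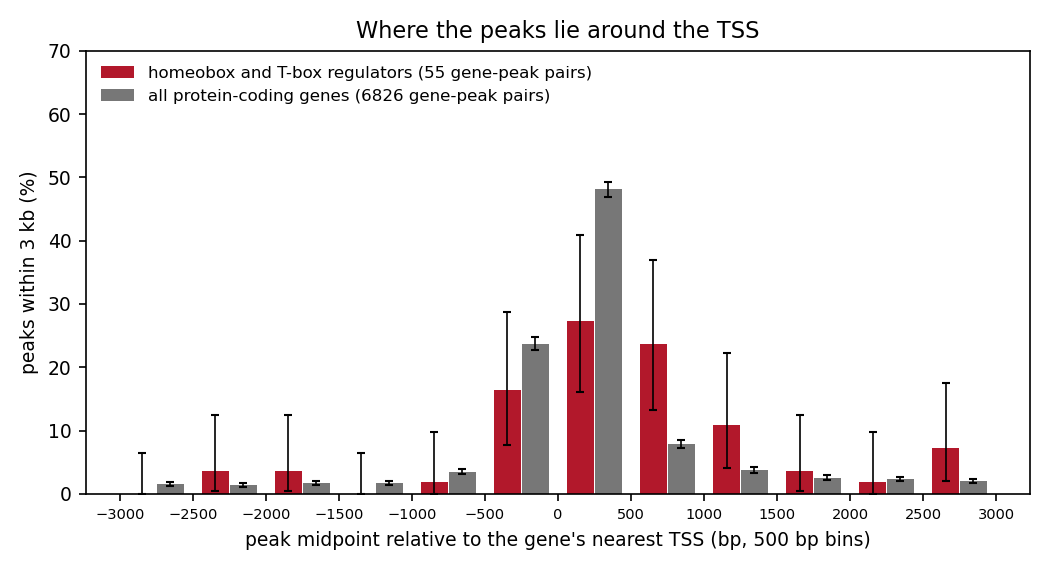
Share of peaks within 3 kb of a TSS (percent, vertical axis) by 500 bp bins of distance from the nearest TSS of the gene, for 55 regulator peaks and 6826 gene and peak pairs of all protein-coding genes, with exact 95% binomial intervals. From 500 to 1000 bp downstream the regulators hold 23.6% and all genes 7.91%, while from 0 to 500 bp they hold 27.3% and 48.1%.

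Assignment by distance has edges, and several regulators lay close to them. Just inside 1 kb was the peak of Pitx3, a regulator of lens and dopamine neurons, at 929 bp. Just outside were those of En2 at 1015 bp (−log10 p 6.26) and Tbx5 at 1023 bp. The farthest peak inside 3 kb was that of Lhx6 at 2760 bp (5.54). The Tbx2 peak at 3065 bp upstream fell outside every class, and the Nkx2-6 peak at 3180 bp downstream counted as a gene body peak.

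Many of the peaks covered protein-coding sequence. The midpoint lay in a coding exon of the gene for 35 of the 72 peaks, or 48.6% (36.7% to 60.7%), against 26.5% over all protein-coding genes. The share was 42.1% within 1 kb (26.3% to 59.2%) against 25.8%, 58.8% at 1 to 3 kb (32.9% to 81.6%) against 35.2%, and 52.9% in gene bodies (27.8% to 77.0%) against 24.9%. In the class within 1 kb, 9 of the other midpoints lay in a UTR, 6 in an intron, 3 in a noncoding exon and 4 outside the gene. Hox genes were at 43.5% over all classes (23.2% to 65.5%) and Fox and Sox genes at 38.5% (23.4% to 55.4%). Both intervals overlap that of the regulators. The regulators are short genes, with a median length of 8134 bp against 17403 bp, and the part of length in the exon share was not tested.

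Some of these peaks lay nearer to a start of another transcript than to a start of the regulator. This held for 3 of the 38 peaks within 1 kb, 5 of the 17 at 1 to 3 kb and 9 of the 17 in gene bodies. Nkx2-2, a regulator of ventral neurons and islet cells, had a peak 2094 bp downstream of an internal TSS. It was 76 bp from the start of the antisense Nkx2-2os. A peak 1992 bp upstream of Six5 was 306 bp from a TSS of Dmpk, the adjacent kinase gene. An Lhx2 peak, 2481 bp upstream of a Lhx2 TSS, was 38 bp from the antisense Gm27197. Giving each peak only to the gene of its nearest TSS left 33.3% of the regulators with a promoter peak against 21.4% of protein-coding genes, and 12.1% against 3.69% at 1 to 3 kb.

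The regulator peaks at promoters had the CpG content of promoter peaks in general. The median CpG ratio was 0.780 within 1 kb, against 0.789 for all promoter peaks of protein-coding genes, and the median GC content was 65.9% against 66.1%. At 1 to 3 kb they remained CpG-rich, with a median ratio of 0.734 against 0.490 and a GC content of 65.9% against 60.8%. En2, with 1.02, Nkx2-3, with 1.00, and Nkx3-2, with 1.03, had ratios near the value expected from base composition with no loss of CpG. In gene bodies the median was 0.404 against 0.372, and the strong Pax5 peak at 0.844 stood apart there.

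Downstream of the TSS the medians of the genes themselves differed in the same way, whether or not they had a peak. The median CpG ratio of the DNA within 500 bp of the 5′ TSS was 0.665 for the regulators and 0.552 for all protein-coding genes, while that of the DNA 1 to 3 kb downstream was 0.433 against 0.209. In 200 bp bins the median of the regulators was highest at 300 bp downstream, with 0.717, and still 0.552 at 1100 bp, where that of all genes was 0.240. Regulators with no peak had a median of 0.655 around the TSS, and those with a promoter peak 0.679. The lower quartiles there were further apart, at 0.337 and 0.629. At 1 to 3 kb downstream the medians of these groups were 0.440 and 0.470.

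**Figure D5:**
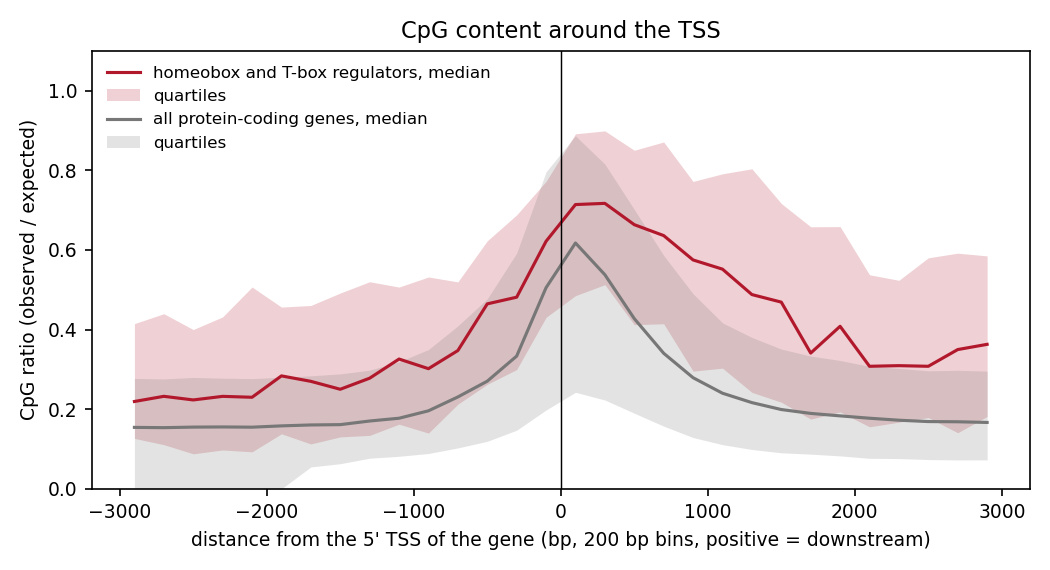
Median CpG ratio (observed over expected, vertical axis) in 200 bp bins around the 5′ TSS, with quartiles shaded, for the 99 regulators and all protein-coding genes. Downstream of the TSS the regulator median stays high, at 0.552 where the other is at 0.240 at 1100 bp.

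Genes were also split by the CpG ratio of that downstream DNA, a split chosen after seeing the data. A ratio of 0.4 or more was held by 55 of the 99 regulators, or 55.6%, and by 9.64% of all protein-coding genes. In that stratum 10 of the 55 regulators had a peak 1 to 3 kb from a TSS, or 18.2% (9.08% to 30.9%), against 13.9% of protein-coding genes. Between 0.2 and 0.4 it was 4 of 32, or 12.5% (3.51% to 29.0%), against 4.96%, and below 0.2 it was 2 of 12, or 16.7% (2.09% to 48.4%), against 3.28%. The promoter shares were 34.5% for the regulators and 34.6% for all genes at 0.4 or more, 37.5% (21.1% to 56.3%) and 29.5% from 0.2 to 0.4, and 33.3% (9.92% to 65.1%) and 17.7% below 0.2.

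Genes were also compared at like CpG content of the promoter. Among genes with a promoter ratio in the range of the middle 80% of the regulators, 0.292 to 0.855, 27 of 79 regulators had a promoter peak, or 34.2% (23.9% to 45.7%), against 30.6% of 11930 protein-coding genes, and any peak was found at 57.0% (45.3% to 68.1%) against 44.0%. With a ratio of 0.75 or more the promoter shares were 40.7% (22.4% to 61.2%) and 43.0%. From 0.4 to 0.75 they were 38.9% (25.9% to 53.1%) and 29.8%. Below 0.4 they were 16.7% (3 of 18, 3.58% to 41.4%) and 7.63%, and any peak was found there at 33.3% (13.3% to 59.0%) and 17.6%. Regulators had a median of 2 annotated TSSs and all protein-coding genes 3. Among genes with a single TSS, 10 of 28 regulators had a promoter peak, or 35.7% (18.6% to 55.9%), against 14.5%, and among those with 4 or more the shares were 41.2% (24.6% to 59.3%) and 33.2%.

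Short motifs were searched on both strands of the whole peak. TAATTA, a core bound by many homeodomains, was present in 3 of the 72 regulator peaks, or 4.17% (0.868% to 11.7%). It was in 4.59% of all peaks and in 3.16% of the peaks of protein-coding genes. The 3 regulator peaks were the intronic Pax5 peak, the Emx2 promoter peak and the Nkx2-2 peak downstream of its TSS. AGGTGTGA, a T-box element, was in none of the 72, which allows a share of up to 4.99%. It was in 1.33% of all peaks and in 1.46% of the peaks of protein-coding genes. TTGCGCAA or TTGCATCA, sequences bound by C/EBP factors of fat cells, were in 1 peak, that of the gut and spleen regulator Nkx2-3. This is 1.39% (upper bound 7.497%), against 0.695% of all peaks and 0.656% of the peaks of protein-coding genes. These searches do not overlap one another in letters and describe the DNA only.

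Sequence copies touched few of the peaks. A match of at least 100 bases at 90% identity elsewhere in GRCm38 was absent for 70 of the 72. The Pou5f1 peak, at the gene of the pluripotency factor Oct4, matched 2 places counting itself. The Pax9 gene body peak matched 995, was 81.1% repeat-masked and held no CpG. Pax9 also had the promoter peak described above and stays in that class without the repeat.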

How the data were processed

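TET2 ChIP-seq of adipocytes differentiated from ASCs comprised 1 TET2 library and 1 input library. Per the methods and the submitters' processing notes, the authors filtered reads with NGS QC Toolkit, aligned them with bowtie1 and called peaks with MACS2 2.1.0 against the input. The deposited list gives an interval and what was read as the −log10 p from the authors' caller for each of 14103 peaks. The notes name mm10 and the methods GRCm39. Positions were read as GRCm38, 1-based, and none were converted. Read totals are not in the peak list, so depth is unknown, and antibody specificity and peak calls have no replicate check.

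Peak midpoints were assigned to GENCODE M21 TSSs with Python 3.11.15, pandas 2.3.3 and scipy 1.17.1, and copies were searched with blastn 2.17.0. The assignment was tested on simulated data. Named genes were the 10 strongest peaks, genes with 2 or more promoter peaks or 3 or more in all, the fat-linked list, and genes next to the 1 and 3 kb limits. Others were named after their values were seen, and some items that meet the rule are not reported here. The members and lists were chosen with earlier results of these data known. Alternatives covered peak thresholds, TSS sets, windows, assignment and CpG range.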

Additional observations from a re-analysis of the deposited data

How the results depend on the processing

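No paired analysis was possible because the single TET2 library had no partner to be paired with. Among 43 alternative values, 34 stayed within the 95% interval or the spread of the value reported, and 9 moved. Leaving out Pou2af1 was added after seeing the data and gave 35.7% of regulators with a promoter peak. With peaks of −log10 p of 10 or more, the regulators held 2.02% within 1 kb and 1.01% at 1 to 3 kb. They held 0.0% in the body only and 3.03% in any class. Protein-coding genes held 2.71%, 0.592%, 1.29% and 4.53% in these classes. Only 3 regulator peaks reach that threshold, too few to order regulators and all genes. That threshold leaves 1222 of the 14103 peaks. With 1 TSS per gene the shares were 22.2% within 1 kb and 22.2% in the body only (all genes 20.1% and 12.5%), since peaks at internal TSSs pass from the former class to the latter. The 500 bp window gave 23.2% (21.6%). The background in the CpG range of the regulators was 30.6%. Within 100 bp of the midpoint, 0.0% of regulator peaks held TAATTA against 1.63% of all peaks and 1.11% of the peaks of protein-coding genes. At a threshold of 5 the share with any peak was 51.5% against 32.7%. The depth is unknown, so an absent peak does not show absent binding.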

Other observations

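Peaks were also counted between 3 and 50 kb from the 5′ TSS on either side, whichever gene they belong to, so that some are peaks already described. There, 63 of the 99 regulators had at least 1 peak, or 63.6% (exact 95% binomial interval 53.4% to 73.1%), against 51.8% of protein-coding genes, and the mean number was 1.05 against 0.889. Fox and Sox genes had 57.1% (44.0% to 69.5%), an interval that overlaps that of the regulators, with a mean of 1.08. Hox genes, which lie in dense clusters and share neighbours, had 97.4% with a mean of 3.38. Of the 44 regulators with no peak in any class, 12 had their nearest peak within 10 kb of a TSS and 11 over 100 kb away, with a median of 41440.5 bp. These regulators without a peak include Pax6 and Nkx2-5 (chosen after their values were seen), which direct development of the eye and of the early heart. Pax6 had no peak in any class although 24 TSSs are annotated for it.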
